A study of Homo sapiens with 18 samples.

Results

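The response of the transcriptome to the microRNA mimic hsa-miR-708-5p (miR-708) was compared between 2 human cell lines, MCF10A breast epithelial cells and hTERT RPE-1 retinal pigment epithelial cells, over 12 of the 18 RNA-seq libraries of the study. The members are the non-targeting siRNA (siNT) and miR-708 libraries of both lines. The log2 fold change of miR-708 over siNT was formed within each line and the value in MCF10A was subtracted from that in hTERT RPE-1, gene by gene, for 13339 genes tested in both lines. Values are estimated read counts divided by a size factor of the library, comparable between the libraries of a line, and fold changes were taken on log2(value + 1). A positive difference means that the gene responded more upward in hTERT RPE-1.

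The study screened microRNA mimics for effects on nucleolar number and ribosome biogenesis and followed the MIR-28 family, and its RNA-seq used polyadenylated RNA. MCF10A is a non-tumorigenic breast epithelial line, and hTERT RPE-1 is a retinal pigment epithelial line immortalised with telomerase. In each line, cells were transfected for 72 h with 30 nM of either siNT or the miR-708 mimic, with 3 libraries per group, which carry the numbers 7 to 9 for MCF10A and 1 to 3 for hTERT RPE-1. The remaining 6 libraries received hsa-miR-28-5p (miR-28), a relative of miR-708. The control is an siRNA and the treatment is a microRNA mimic, in both lines alike. Per the study's methods, the MCF10A medium held horse serum, insulin, hydrocortisone, epidermal growth factor (EGF) and cholera toxin, whereas the hTERT RPE-1 medium held fetal bovine serum. The values of the 2 lines come from separate tables that were scaled separately, so the line, the medium and the table cannot be told apart as the origin of any difference given here.

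A mature microRNA guides Argonaute proteins to transcripts that pair with its seed, bases 2 to 8, and the paired transcripts are usually repressed and degraded. The MIR-28 family shares 1 seed, so its members are expected to reach overlapping sets of transcripts in any cell that expresses them. Which of these a cell can repress depends on the transcripts it makes, and an epithelial and a more mesenchymal cell make different ones. The mature sequences of the mimic compared here and of its relative are shown because they carry the shared seed, given in capitals.
hsa-miR-708-5p: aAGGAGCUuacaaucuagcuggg
hsa-miR-28-5p: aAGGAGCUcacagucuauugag
The sequence of miR-708 is that of RefSeq (GRCh38.p14), at chr11:79402077-79402099 on the minus strand, and that of miR-28 is the one the study lists for its mimic. A transcript pairs with the seed AGGAGCU through the letters AGCTCCT, a 7mer opposite bases 2 to 8. The weaker 6mer is GCTCCT, the other 7mer, GCTCCTA, adds an A opposite base 1, and the 8mer AGCTCCTA holds both.

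The seed matches of genes that the comparison turns on are shown next, as 28-base windows of the transcript strand in hg38, with the match in capitals. All lie in the last exon of the gene, in the annotated 3′ UTR. Both windows of RPS28 hold 6mers (chr19:8322316-8322343 and chr19:8322351-8322378, plus strand), both windows of CDKN1A hold the 7mer opposite bases 2 to 8 (chr6:36687132-36687159 and chr6:36687262-36687289, plus strand), and so does the window of KIAA1522 (chr1:32774496-32774523, plus strand). RTL8C holds the 7mer with an A opposite base 1 (chrX:135033166-135033193, plus strand), PXK an 8mer (chr3:58425335-58425362, plus strand) and SLC7A11 a 7mer opposite bases 2 to 8 (chr4:138168711-138168738, minus strand).
RPS28, first window: tgtcacagtctGCTCCTtttttttgtcc
RPS28, second window: gtaactgagatGCTCCTttaaataaagc
CDKN1A, first window: aacaccttccAGCTCCTgtaacatactg
CDKN1A, second window: tgtctttcacAGCTCCTcccacaatgct
KIAA1522: ttctgctcagAGCTCCTgatctacccca
RTL8C: gacagactgctGCTCCTAgtgatctgga
PXK: cccatcagacAGCTCCTAgaaacattcc
SLC7A11: tttagactgtAGCTCCTcagccctgtgg
These genes did not respond alike. As described below with their values, RPS28, KIAA1522 and RTL8C fell in both lines and further in hTERT RPE-1, PXK fell further in MCF10A, CDKN1A fell in hTERT RPE-1, and SLC7A11 moved in opposite directions.

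The estimated depth per library was 24.2 to 31.7 M reads for MCF10A and 23.7 to 40.3 M for hTERT RPE-1, and 3 reads corresponded to a value of 2.36 to 4.42. The value of 3 reads covers counting error only, while the SEs and intervals given below come from the spread between libraries. In MCF10A all 10 breast epithelial markers had a mean value of at least 100 with siNT. Of the 10 retinal pigment epithelial marker names, of which CRALBP is an alias of RLBP1, 4 had a siNT mean of at least 100 in hTERT RPE-1, namely the transcription factors MITF (1908) and OTX2 (951), the melanosome protein gene PMEL (189) and the channel gene BEST1 (165.5). SERPINF1 was at 25.7, RLBP1 was near the value of 3 reads, RPE65, TTR and TYR had no value analysed here, and 9 of 10 mesenchymal markers had a mean of at least 100. The miR-708 library numbered 7 in MCF10A lay farther from the other miR-708 libraries of its line (median absolute log2 difference 0.257 and 0.274) than those lay from each other (0.16), so the count of opposite genes is also given without it.

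The 2 lines responded to the same mimic to a different extent and partly in different directions. Calls below rest on the moderated test of limma, adjusted over all genes by the Benjamini-Hochberg method, with a threshold of 0.05. By this measure miR-708 changed 4440 genes in MCF10A (33.3% of those tested in both lines: 15.6% rose and 17.7% fell) and 8359 in hTERT RPE-1 (62.7%: 31.5% rose and 31.2% fell). The libraries of a group are biological triplicates by the study's methods, and these p-values measure the spread between them. In bulk libraries such as these, fewer cells of a kind and less RNA per cell cannot be told apart. The SD of the log2 fold changes over genes was 0.688 in MCF10A and 1.02 in hTERT RPE-1. In 47.4% of genes the siNT and miR-708 libraries did not overlap in MCF10A, in 69.8% they did not overlap in hTERT RPE-1, and in 35.6% they overlapped in neither line.

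The difference between the lines was called for 5311 genes (39.8%). The response was higher in hTERT RPE-1 for 2700 (20.2%) and lower for 2611 (19.6%). When each library was instead scaled to the same total, 3712 were higher and 1711 lower and the median difference over genes moved from -0.02 to 0.15, so the even split depends on the authors' size factors. The summed values of a library were 34.8 to 37.1 M with siNT and 27.9 to 29.1 M with miR-708 in hTERT RPE-1, against 27.6 to 28.9 M and 25.3 to 26.4 M in MCF10A. Differences of at least 1 on the log2 scale were called for 2270 genes and of at least 2 for 596, of which 296 were higher and 300 lower in hTERT RPE-1. The precision followed the level: 25.2% of the 2170 genes with a mean below 50 in either line were called, at a median SE of 0.554, against 44.4% of the 4477 genes with means of at least 1000 in both, at a median SE of 0.155.

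Most of the called differences had a called response in a single line. The response was called in hTERT RPE-1 and not in MCF10A for 1566 rises and 1415 falls, and in MCF10A and not in hTERT RPE-1 for 291 rises and 341 falls. Both lines were called in the same direction for 2730 genes, of which 936 differed in size, with 486 falls larger in hTERT RPE-1, 74 rises and 45 falls larger in MCF10A, and the others rises larger in hTERT RPE-1. A further 213 genes differed between the lines with no call in either. Opposite responses, with a call in each line and in the difference, were found for 549 genes (4.12%), of which 303 rose in hTERT RPE-1 and fell in MCF10A (2.27%) and the others did the reverse (1.84%). The count of opposite genes was 280 without the miR-708 library 9 of MCF10A, 347 without library 8, 704 without library 7, and 357 without the siNT library 9. The siNT libraries did not overlap the miR-708 libraries in either line for 514 of the 549, beside 35.6% of all genes. As the 549 were selected by a call in each line, this count follows largely from that choice.

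**Figure D1:**
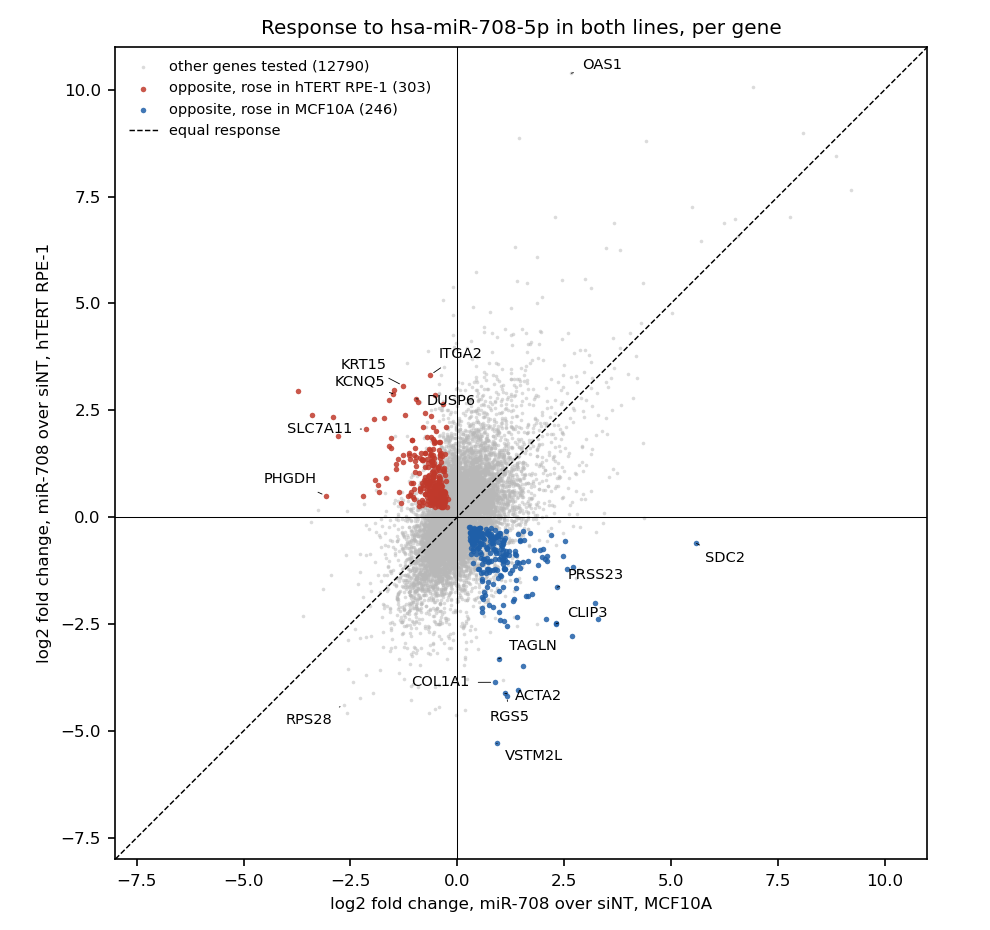
Each point is 1 of 13339 genes, with the log2 fold change of miR-708 over siNT in MCF10A on the x axis and in hTERT RPE-1 on the y axis. The 303 genes in red lie at the upper left and the opposite genes in blue at the lower right, while OAS1 stands far above the dashed line of equal response and RPS28 below it.

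Over all genes, the least-squares slope of the hTERT RPE-1 on the MCF10A fold change was 0.694 (Pearson r 0.467, Spearman rho 0.41), and 64.7% of genes had the same sign in both lines. These are descriptions across genes, which are not independent replicates. The tested genes also leave out 1387 that passed the filter in MCF10A alone and 1188 that passed in hTERT RPE-1 alone.

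Opposite genes were named only where the mean reached 100 in each line and the siNT and miR-708 libraries did not overlap in either. Of the 8 with the largest positive difference, 7 are given here, all of which rose in hTERT RPE-1 and fell in MCF10A. KCNQ5, a voltage-gated potassium channel gene, had values of 682, 624 and 623 with siNT and 407, 220.1 and 127 with miR-708 in MCF10A, and 329, 249 and 369.8 with siNT and 1935, 1922 and 3336 with miR-708 in hTERT RPE-1. The log2 fold changes of -1.51 and 2.89 gave a difference of 4.40 ± 0.43 (SE, adjusted p = 1.84e-07). KRT15, a keratin of basal epithelial cells, was abundant in MCF10A and scarce in hTERT RPE-1. It fell from 17373, 9646 and 11730 to 8306, 5140.5 and 3311 in MCF10A and rose from 26.8, 20.3 and 29.3 to 188, 274 and 205 in hTERT RPE-1, a difference of 4.34 ± 0.41 (adjusted p = 1.33e-07). SLC7A11 encodes the transport subunit of the cystine-glutamate antiporter. Its values were 2988, 1054 and 4068 with siNT and 503, 629 and 468 with miR-708 in MCF10A, where siNT library 8 was the lowest of its group, and 483, 565 and 299 against 1617, 2648 and 1395 in hTERT RPE-1. The log2 fold changes were -2.14 and 2.06, with a difference of 4.20 ± 0.56 (adjusted p = 6.25e-06). ITGA2, a collagen-binding integrin subunit, fell from 6916, 4252 and 5546 to 3915, 3212 and 3474 in MCF10A and rose from 977, 1036 and 1579 to 10965, 13574 and 10862 in hTERT RPE-1, so that after miR-708 its values in hTERT RPE-1 lay far above siNT.

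The remaining genes of this kind belonged to signalling, amino acid synthesis and mitochondrial gene expression. DUSP6, a phosphatase that inactivates ERK and is itself induced by ERK signalling, fell from 3896, 3961 and 4219 to 2282, 1988 and 1923 in MCF10A and rose from 181, 193 and 247 to 1376, 1667 and 1199 in hTERT RPE-1. Its difference of 3.73 ± 0.20 was the most precise of the 7 (adjusted p = 1.87e-09). PHGDH, the enzyme that commits glycolytic carbon to serine synthesis, fell from 1415, 378.2 and 1390.4 to 117, 116 and 89.7 in MCF10A, with siNT library 8 again the lowest, and rose from 989, 955 and 869 to 1329, 1320.3 and 1321 in hTERT RPE-1. The fall of PHGDH in MCF10A (-3.08) was far larger than its rise in hTERT RPE-1 (0.50). PPARGC1B, a coactivator of mitochondrial gene expression, had a difference of 3.19 ± 0.30, from log2 fold changes of -0.75 and 2.44.

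The 8 genes with the largest difference the other way fell in hTERT RPE-1 and rose in MCF10A, and several encode contractile or matrix proteins of mesenchymal cells. VSTM2L had values of 394, 222.8 and 266 with siNT and 621, 462 and 554 with miR-708 in MCF10A, and of 171, 276 and 159.9 with siNT and 3.92, 8.56 and 1.7 with miR-708 in hTERT RPE-1, where the miR-708 values were close to those of 3 reads. Its difference was -6.21 ± 0.47 (adjusted p = 1.79e-07). SDC2, a cell surface heparan sulphate proteoglycan, rose in MCF10A from 1.2, 6.43 and 13.7, of which 1 library lay below 3 reads, to 173, 379 and 409, and fell in hTERT RPE-1 from 9222, 11935 and 10981 to 7096, 6575 and 7230. The difference of SDC2, -6.21 ± 0.71, thus came mostly from MCF10A, in contrast to that of VSTM2L. RGS5, a regulator of G protein signalling known from pericytes, rose from 71.8, 72.8 and 72.1 to 137, 169 and 182 in MCF10A and fell from 4182, 5376 and 3474 to 271, 179.8 and 266 in hTERT RPE-1 (difference -5.33 ± 0.33, adjusted p = 1.87e-09).

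ACTA2, smooth muscle actin, rose in MCF10A from 247, 262 and 278 to 468, 630.4 and 622. In hTERT RPE-1 it fell from 47528, 59612 and 17973, with siNT library 3 the lowest, to 2307, 2117 and 1964, and the difference was -5.24 ± 0.42 (adjusted p = 4.05e-08). TAGLN, an actin-binding protein of smooth muscle, showed the same pattern, with a rise from 61.8, 98 and 71.7 to 144, 142 and 161 in MCF10A and a fall from 68824, 86964 and 51701 to 8839, 5139 and 6939.6 in hTERT RPE-1. The level of both genes with siNT was far higher within the hTERT RPE-1 table than within the MCF10A table. COL1A1, a chain of type I collagen, rose from 107, 104 and 89.5 to 161, 239 and 162 in MCF10A and fell from 34155, 67366 and 22655 to 2189.9, 5120.3 and 1505 in hTERT RPE-1 (difference -4.74 ± 0.58). CLIP3, a microtubule-binding protein, and PRSS23, a serine protease, had differences of -4.81 ± 0.44 and -3.98 ± 0.39, with rises of 2.32 and 2.34 (log2) in MCF10A and log2 fold changes of -2.49 and -1.64 in hTERT RPE-1.

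**Figure D2:**
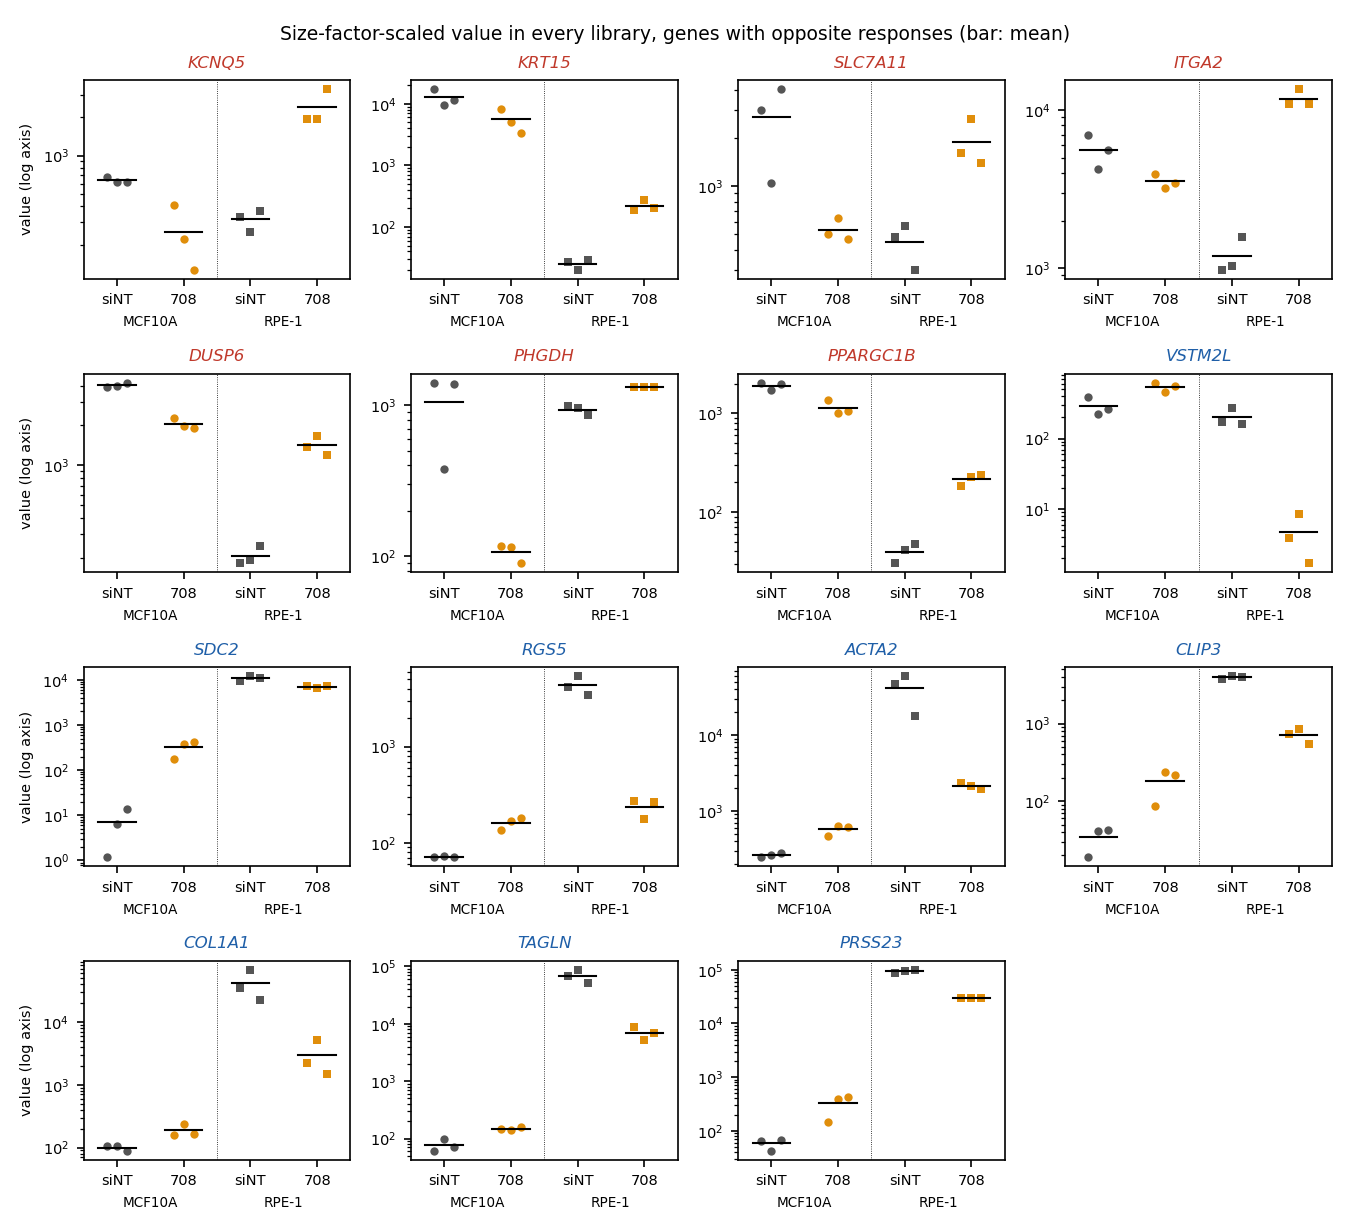
Each panel shows the size-factor-scaled value of 1 gene in the 3 siNT and 3 miR-708 libraries of MCF10A (circles, left of the dotted line) and hTERT RPE-1 (squares, right), on a log axis with the group mean as a bar. The 7 genes with red titles fall in MCF10A and rise in hTERT RPE-1, and the 8 with blue titles do the reverse. Genes were selected so that siNT and miR-708 libraries do not overlap in either line.

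The MIR-28 relative gives values that can be set beside these, although its fold changes use the same siNT libraries and are no independent check. With miR-28, the log2 fold changes in MCF10A and hTERT RPE-1 were -0.84 and 1.25 for KCNQ5, -2.17 and 0.89 for SLC7A11, -0.72 and 2.62 for DUSP6, 0.89 and -1.56 for ACTA2, and 2.97 and 0.22 for SDC2. Those of KCNQ5 in MCF10A and of SLC7A11 and SDC2 in hTERT RPE-1 were not called. PHGDH (-3.05 and 0.08), KRT15 (-0.30 and 1.99) and PRSS23 (0.19 and -0.83) were also called with miR-28 in a single line. The other opposite genes named above were called in both, in opposite directions.

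The integrated stress response, in which the transcription factor ATF4 induces amino acid synthesis and transport, differed in direction between the lines. Of 27 members tested, 21 were higher in hTERT RPE-1 and none lower, 9 responded in opposite directions, and 6 were not called, beside 20.2% higher and 19.6% lower over all genes. In MCF10A 18 fell and 3 rose, whereas in hTERT RPE-1 15 rose and 3 fell, and the median log2 fold changes were -0.889 and 0.50 with a median difference of 1.25, beside -0.02 over all genes. TRIB3, a pseudokinase induced by ATF4, fell from 1821, 1109.9 and 1995 to 443, 378.1 and 427 in MCF10A and rose from 281, 269 and 247 to 437, 533 and 493 in hTERT RPE-1, a difference of 2.81 ± 0.23 (adjusted p = 2.72e-08). ASNS, asparagine synthetase, fell from 4749.7, 1120 and 5293 to 831, 659.9 and 515 in MCF10A and rose from 729, 818 and 545 to 1029, 932 and 967 in hTERT RPE-1. As for SLC7A11 and PHGDH, the siNT library 8 of MCF10A was the lowest of its group for TRIB3 and ASNS. PSAT1, which acts after PHGDH in serine synthesis, had log2 fold changes of -0.98 and 1.06, and SLC3A2, the partner subunit of several amino acid transporters, of -0.57 and 1.45.

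ATF4 itself went from means of 12020 to 6447 in MCF10A and from 6858 to 8713 in hTERT RPE-1, with a difference of 1.24 ± 0.17 (adjusted p = 7.52e-06). The stress-induced transcription factors DDIT3 and ATF3, in contrast, rose in both lines, with log2 fold changes of 1.47 (DDIT3) and 2.07 (ATF3) in MCF10A, against 3.09 and 3.03 in hTERT RPE-1. Leaving out any 1 library kept the list's median difference between 1.16 and 1.42, with 18 to 21 members higher in hTERT RPE-1. The overlapping list of serine, one-carbon and purine synthesis counted 12 members higher and 2 lower of 23, beside 20.2% and 19.6% over all genes. It had 14 falls in MCF10A and 7 rises and 4 falls in hTERT RPE-1. The mitochondrial folate enzymes SHMT2 and MTHFD2 fell in MCF10A (-1.49 and -1.04) and had values of -0.18 and 0.21 in hTERT RPE-1, without a call there.

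A list of the EGF receptor family, its ligands and feedback genes of the pathway also differed between the lines. It was written with 18 members. The ligand genes AREG and EREG had values analysed in MCF10A alone and the receptor gene ERBB4 in hTERT RPE-1 alone, so they were not compared. Of 15 members tested, 10 were higher and 2 lower in hTERT RPE-1 and 4 were opposite, beside 20.2%, 19.6% and 4.12% over all genes. The median log2 fold change was -0.174 in MCF10A, against 0.823 in hTERT RPE-1. The median difference was 1.36, between 0.976 and 1.56 when any 1 library was left out, with 7 to 10 members higher. ETV4, a transcription factor induced by ERK, fell from 497, 538 and 501 to 228, 190.2 and 157 in MCF10A and rose from 72.5, 80.1 and 57.2 to 179, 130.3 and 149.8 in hTERT RPE-1. ETV5, its close relative, fell from 1419.7, 1217 and 1451 to 917, 724 and 696 in MCF10A and rose from 1069.7, 1001 and 866 to 2312, 2435 and 2617 in hTERT RPE-1, and the 2 genes differed by 2.55 ± 0.29 and 2.14 ± 0.19 (adjusted p = 1.31e-06 and 3.53e-08). HBEGF, a ligand of the receptor, had log2 fold changes of -1.10 and 0.51 and was the other opposite member beside DUSP6. ERRFI1, a feedback inhibitor of the receptor, went the other way, from 6187, 6409 and 6643 to 2219, 2484 and 1851 in hTERT RPE-1, with overlapping values of 5629, 5541 and 6112 and 5421, 8094 and 7958 in MCF10A. EGFR, the receptor, fell in MCF10A (-0.65) and was at -0.14 in hTERT RPE-1, without a call there, and the call of its difference was lost without 6 of the 12 libraries in turn. EGF was a component of the MCF10A medium and not of the hTERT RPE-1 medium, which cannot be told apart from the line.

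Matrix and adhesion genes moved both ways. Among 29 collagens and laminins tested, 6 were higher and 12 lower in hTERT RPE-1, with 5 opposite and a median log2 fold change of 0.01 in MCF10A, against -0.58 in hTERT RPE-1, beside 20.2% higher and 19.6% lower over all genes. The count of 5 opposite members was 1 without the miR-708 library 8 of MCF10A, 2 without its miR-708 library 9 or siNT library 7 or 8, and 3 without siNT library 9. COL4A1, a chain of the basement membrane collagen IV, rose from 933, 1298 and 1324 to 1514, 2898 and 3984 in MCF10A, where library 7 gave the lowest miR-708 value, and fell from 96746, 147780 and 87653 to 52782, 68142 and 58804 in hTERT RPE-1. Its neighbour COL4A2 behaved alike, with log2 fold changes of 1.05 and -0.68 and a difference of -1.73 ± 0.40 (adjusted p = 0.0021). LAMA3 and LAMB3 encode laminin chains of the epithelial basement membrane. LAMA3 rose in hTERT RPE-1 from 16.4, 14.2 and 11.7 to 530.4, 750.5 and 604, while its values in MCF10A overlapped at 20422, 14159 and 16044 and 18988, 13115 and 15454. LAMB3 had log2 fold changes of -0.33 and 1.97, with a difference of 2.29 ± 0.28 (adjusted p = 4.8e-06).

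Of 14 integrins, 4 were higher and 6 lower in hTERT RPE-1 and 3 were opposite, with 7 falls in MCF10A (4 without its miR-708 library 8 or siNT library 7 or 9) and 9 falls and 4 rises in hTERT RPE-1. Over all genes 20.2% were higher, 19.6% lower and 4.12% opposite. Falls made up 17.7% of all genes in MCF10A and 31.2% in hTERT RPE-1, where 31.5% rose. ITGA6, a subunit of laminin-binding integrins, fell from 33892, 27978 and 26527 to 18764, 11939 and 11092 in MCF10A and rose from 2176, 1953 and 3019 to 6065, 5191 and 6748 in hTERT RPE-1. ITGAV, a subunit of vitronectin receptors, fell in both, with log2 fold changes of -0.31 and -2.21 and a difference of -1.91 ± 0.18. ITGA5, the alpha subunit of the fibronectin receptor, fell in hTERT RPE-1 from 57518, 59458 and 48268 to 15635, 20438 and 20357, with overlapping values in MCF10A. ITGB1, the beta subunit that pairs with many of these, was at 0.04 in MCF10A and -1.11 in hTERT RPE-1 (difference -1.16 ± 0.21, adjusted p = 0.00019).

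**Figure D3:**
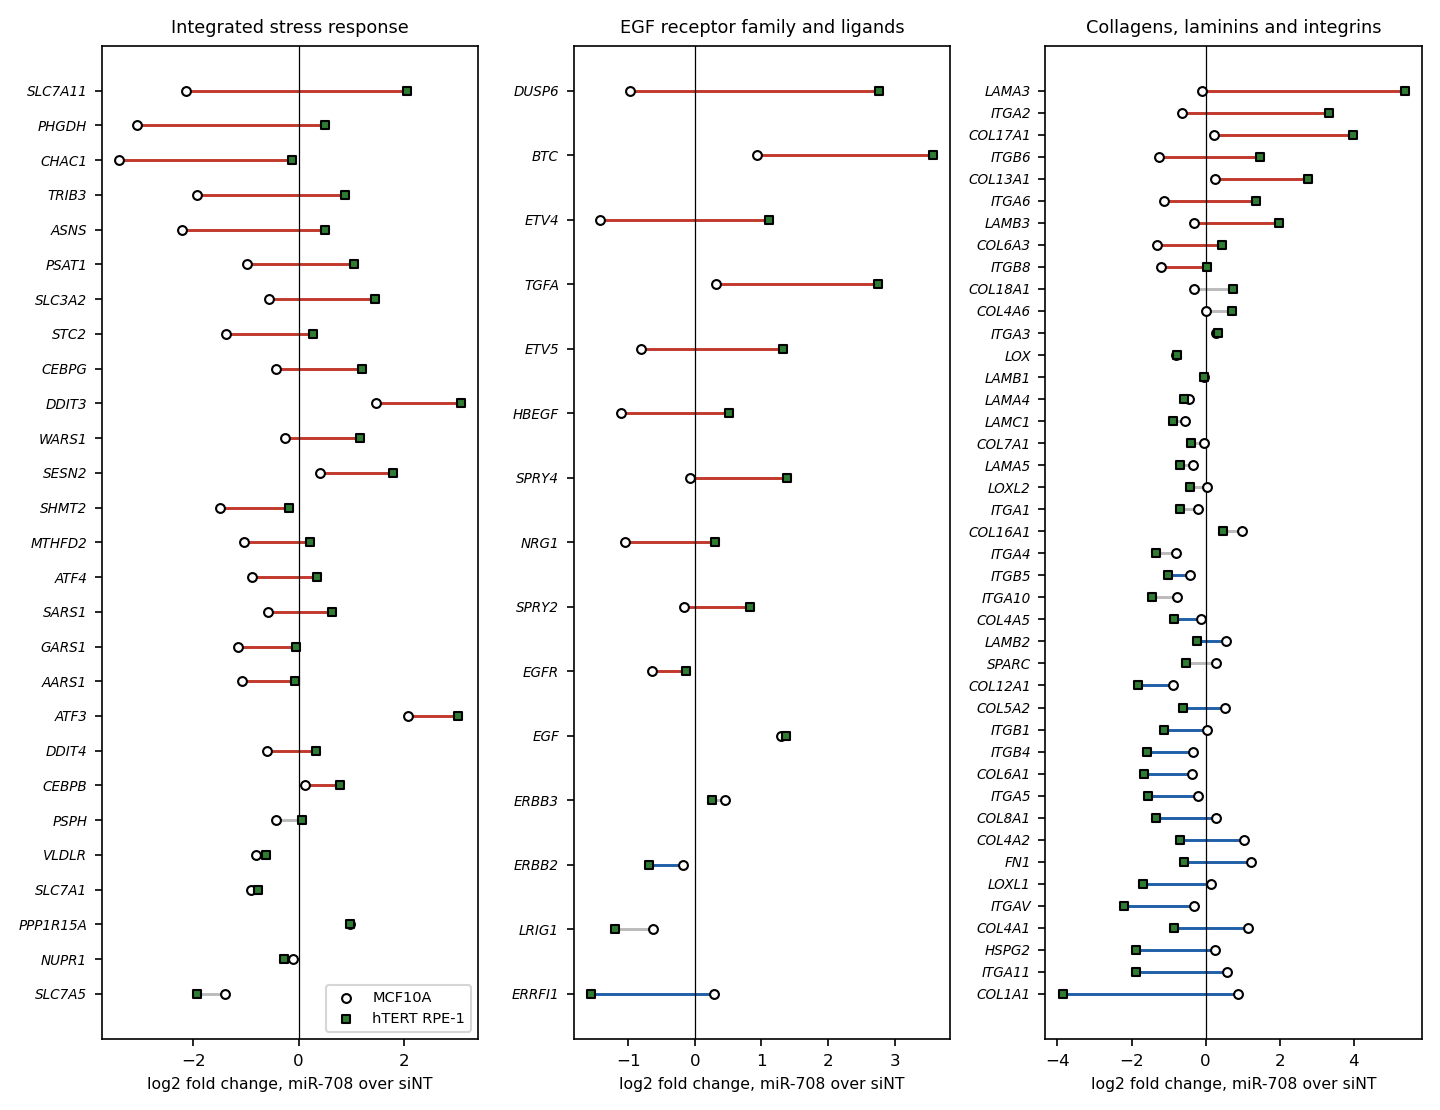
Each row is 1 gene of the integrated stress response, of the EGF receptor family and ligands, or of the collagens, laminins and integrins, with the log2 fold change of miR-708 over siNT in MCF10A (open circle) and hTERT RPE-1 (green square) on the x axis. A red line joins genes called higher in hTERT RPE-1 (21, 10 and, among the matrix genes drawn, 9), a blue line genes called lower (0, 2 and 18) and a grey line genes not called.

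Of 33 mesenchymal markers and TGF-β targets, 15 were lower and 5 higher in hTERT RPE-1 and 4 were opposite, with 12 rises in MCF10A (7 without its miR-708 library 8 or 9) and 15 falls in hTERT RPE-1. Over all genes 19.6% were lower, 20.2% higher and 4.12% opposite, with 15.6% rises in MCF10A and 31.2% falls in hTERT RPE-1. ID3, a TGF-β family target that restrains differentiation, rose from 621, 594 and 615 to 1443, 1471 and 1755 in MCF10A and fell from 1910.5, 2104 and 1531 to 1095, 812 and 1157 in hTERT RPE-1. POSTN, a matrix protein, varied widely between libraries, at 673, 1619.5 and 182 with siNT in hTERT RPE-1, and its difference of -4.21 ± 1.15 carried a correspondingly large error. TGFB2, a TGF-β ligand, fell in hTERT RPE-1 from 41012, 48376 and 48642 to 10706, 9502 and 9902 with overlapping values in MCF10A. The summed value of the mesenchymal cell markers went in hTERT RPE-1 from a range of 1264000 to 1999000 with siNT to one of 939500 to 1082000 with miR-708, and in MCF10A it went from 24280 to 41500 to between 39090 and 89260. The largest member of this sum with miR-708 in both lines was FN1, fibronectin, with means of 1341000 and 882000 in hTERT RPE-1 (adjusted p = 0.205) and 18980 and 45820 in MCF10A (adjusted p = 0.0787), which was called in neither. Of the other 9 markers, CDH2, COL1A1, COL3A1, PDGFRB and THY1 fell in hTERT RPE-1 and TWIST1 rose. The summed breast epithelial markers went from 201300 to 209700 down to 105300 to 135200 in MCF10A and from 1148 to 1430 up to 1691 to 1819 in hTERT RPE-1. In hTERT RPE-1 the summed retinal pigment epithelial markers went from 2943 to 3784 down to 2108 to 2276. Of 5 endothelial markers in hTERT RPE-1, KDR rose from a mean of 275 to 1033, and TEK went from 19.1 to 12.1 without a call. VWF was near the value of 3 reads, and PECAM1 and CDH5 had no value analysed there. The part of these shifts in the gene differences was not tested.

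Only 7 of 38 keratin and epidermal genes written could be tested in both lines, since most had values analysed in MCF10A alone. Of the 7, 5 were lower and 2 higher in hTERT RPE-1, beside 19.6% lower and 20.2% higher over all genes. KRT8, a keratin of simple epithelia, fell in hTERT RPE-1 from 15170, 15598 and 14031 to 2033, 2117 and 2125 and overlapped in MCF10A at 3614, 2848 and 2499 and 3761, 2137 and 2122. KRT18, its partner, had log2 fold changes of 0.03 and -1.95, and KRT7 of -0.21 and -1.86. The desmosome and junction list had 3 members higher (5 without the miR-708 library 7 of MCF10A) and 7 lower of 19 tested. It was written with 32 genes, of which others, such as CDH1 and EPCAM, had values analysed in MCF10A alone. The Hippo pathway and YAP targets had 2 higher and 12 lower of 25 (3 and 7 with each library scaled to the same total, and 1 higher without 9 of the 12 libraries in turn). CCN1, a YAP target and secreted matrix protein, rose in MCF10A (1.47) and fell in hTERT RPE-1 (-0.57), whereas the related CCN2 was at -0.29 and -0.62 and its difference was not called (adjusted p = 0.582).

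Genes of DNA replication and mitosis were higher in hTERT RPE-1 almost throughout. Of 42 replication and S phase genes, 38 were higher and none lower, beside 20.2% higher and 19.6% lower over all genes, 7 were opposite, and the medians were -0.276 in MCF10A and 1.2 in hTERT RPE-1. Opposite members numbered 1 rather than 7 without the miR-708 library 9 or siNT library 8 of MCF10A, 2 without its miR-708 library 8, 4 without its siNT library 9 and 10 without its miR-708 library 7. PRIM1, a primase subunit, fell from 531, 666 and 668 to 526, 421 and 371 in MCF10A and rose from 129, 83.1 and 101 to 409, 343.4 and 519 in hTERT RPE-1, with a difference of 2.52 ± 0.30 (adjusted p = 3.52e-06). MCM3 and MCM4, subunits of the replicative helicase, fell in MCF10A (log2 fold changes of -0.72 and -0.51), while both rose in hTERT RPE-1 (0.74 and 0.96). PCNA, the sliding clamp of DNA polymerases, rose in hTERT RPE-1 (1.48) and was at 0.17 in MCF10A.

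Of 42 mitosis and G2/M genes, 35 were higher in hTERT RPE-1 and none lower, beside 20.2% and 19.6% over all genes. The medians were 0.117 in MCF10A and 1.1 in hTERT RPE-1. CENPE, a kinetochore motor, fell from 4011, 2259 and 3322 to 1571, 2124 and 2179 in MCF10A and rose from 1501, 1036 and 1674 to 2905, 2599.7 and 3919 in hTERT RPE-1. MKI67, the proliferation antigen Ki-67, went from means of 12630 to 8060 in MCF10A and from 9478 to 14410 in hTERT RPE-1, a difference of 1.25 ± 0.22 (adjusted p = 0.000281). CDK1, the mitotic kinase, rose in both lines but less in MCF10A (0.43 against 1.97). Among the 17 genes tested of a list of G1 cyclins, CDK inhibitors and RB family genes, 6 were higher and none lower. This made 35.3% called, below the 39.8% over all genes. The list did not hold CDKN1A, whose response was lower in hTERT RPE-1 and is given below. Its members CDKN2A and CDKN2B had no value analysed in MCF10A. The 6 were led by E2F7, a repressor of E2F targets, at 669.9, 427 and 536 with siNT and 6440.3, 6837 and 7534 with miR-708 in hTERT RPE-1 and overlapping values of 806, 762 and 907 and 1144, 827 and 1219 in MCF10A. In hTERT RPE-1, PRIM1 and CENPE had their lowest siNT value in library 2, and leaving out any 1 library left 35 to 40 replication and 31 to 39 mitosis genes higher.

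CDKN1A, the inhibitor of cyclin-dependent kinases, had values of 2898, 2523 and 2847 with siNT and 2609, 2522 and 2648 with miR-708 in MCF10A and of 5698, 6211 and 6336 and 3112, 3470 and 2993 in hTERT RPE-1. Its libraries overlapped in MCF10A and not in hTERT RPE-1, and the difference was -0.85 ± 0.14 (adjusted p = 8.65e-05). MYC, the growth-promoting transcription factor, fell in MCF10A from 12456, 15272 and 15877 to 7879, 7623 and 6922 and overlapped in hTERT RPE-1 at 1433, 1096 and 1198 and 1439, 826 and 1281, a difference of 0.85 ± 0.22 (adjusted p = 0.00435). The MYC, MAX and MXD network, MYC included, counted 4 higher and 2 lower of 11, beside 20.2% and 19.6% over all genes. It counted 2 higher without library 7 of MCF10A of either treatment, its siNT library 9 or the siNT library 2 of hTERT RPE-1.

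The response of ribosomal protein genes was lower, and that of ribosome biogenesis factors higher, in hTERT RPE-1. RPS28, a protein of the small ribosomal subunit whose seed matches are shown above, fell from 3589, 3959.6 and 4062 to 785, 554 and 532 in MCF10A and from 3465, 3301 and 2892 to 177, 159.8 and 123 in hTERT RPE-1. The siNT and miR-708 libraries did not overlap in either line, and the fall was larger in hTERT RPE-1, with a difference of -1.74 ± 0.24 (adjusted p = 1.12e-05). Ribosomal protein genes have many processed copies in the genome, so the division of their reads is uncertain. Over all genes 31.2% fell in hTERT RPE-1 and 17.7% in MCF10A, and the response in hTERT RPE-1 was lower for 19.6% and higher for 20.2%. All 32 small subunit genes fell in hTERT RPE-1 and 24 in MCF10A, and 23 had a lower response in hTERT RPE-1 and none a higher one. All 48 large subunit genes fell in hTERT RPE-1 and 39 in MCF10A, with 28 lower and none higher, and the median differences were -0.649 and -0.562. RPS25 fell from 23922, 26855 and 27827 to 14002, 11383 and 10853 in MCF10A and from 9473, 8929 and 9525 to 2384, 1888 and 1889.8 in hTERT RPE-1, and RPL23A had log2 fold changes of -1.42 and -2.30. With each library scaled to the same total, 9 small and 16 large subunit genes were called lower. Leaving out 1 library gave 9 to 27 small and 18 to 33 large subunit genes, with 9 and 18 without the miR-708 library 2 of hTERT RPE-1, 15 and 18 without its miR-708 library 3, 14 and 18 without the siNT library 7 of MCF10A, and 13 and 21 without the siNT library 1 of hTERT RPE-1.

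The 57 ribosome biogenesis factors, which process ribosomal RNA and assemble the subunits, were higher in hTERT RPE-1 in 36 cases and lower in none. Over all genes 20.2% were higher, 19.6% lower and 4.12% opposite. In MCF10A 20 fell and 3 rose, while in hTERT RPE-1 28 rose and 6 fell, with 5 opposite. Without the miR-708 library 9 of MCF10A 8 fell there and none was opposite, without its siNT library 8 the counts were 9 and 1, without its miR-708 library 8 they were 13 and 2, and 3 were opposite without its siNT library 9. TCOF1, a nucleolar cofactor of ribosomal RNA transcription, went from means of 4589 to 3091 in MCF10A and from 1472 to 1891 in hTERT RPE-1, a difference of 0.95 ± 0.19 (adjusted p = 0.000571). UTP14A, a factor of small subunit processing, had log2 fold changes of -0.34 and 0.57. The abundant nucleolar protein NCL fell in both lines (-0.64 and -0.40) and its difference was not called, and the methyltransferase FBL fell in MCF10A (-0.75) and was at -0.16 in hTERT RPE-1.

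The interferon response, the antiviral programme of innate immunity, was shared in direction. All 40 interferon-stimulated effectors tested rose in both lines, beside 15.6% of all genes in MCF10A and 31.5% in hTERT RPE-1. Their medians were 2.96 (MCF10A) and 4.54 (hTERT RPE-1). The rise was called larger in hTERT RPE-1 for 15 (37.5%) and in MCF10A for none, beside 20.2% higher and 19.6% lower over all genes. These counts cover 40 of 46 effectors written. RSAD2, OASL and CMPK2 rose in MCF10A (log2 fold changes of 8.48, 6.35 and 6.21) and had no value analysed in hTERT RPE-1. Their difference could not be formed, and MX2, RIGI and XAF1 had no value analysed in either line. ISG15, MX1 and IFIT1, which encode a ubiquitin-like modifier and antiviral proteins, rose by 6.56, 8.86 and 7.78 in MCF10A and by 6.59, 8.44 and 7.02 in hTERT RPE-1 on the log2 scale, and their differences were not called (95% intervals of the difference -1.75 to 1.80, -2.57 to 1.73 and -2.45 to 0.94). OAS1, an enzyme activated by double-stranded RNA, rose from 668, 682 and 510.3 to 3232, 4794 and 3851 in MCF10A. In hTERT RPE-1 it rose from 10.4, 3.04 and 2.93, with siNT libraries 2 and 3 at or below 3 reads, to 6158, 8480.3 and 8277, and the difference of 7.72 ± 0.89 (adjusted p = 4.1e-05) rests in part on these low values. IFITM1, a membrane protein that blocks viral entry, rose from 257, 397 and 338 to 4713, 9439.6 and 7569.8 in MCF10A and from 16.8, 20.9 and 13.7 to 7123, 9599.9 and 7470.4 in hTERT RPE-1. With miR-28, IFITM1 was at -0.26 in MCF10A and 7.22 in hTERT RPE-1, and OAS1 at -0.70 and 8.99, measured against the same siNT libraries.

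Among the genes of the interferon pathway itself, 4 were higher and 2 lower of 22, beside 20.2% higher and 19.6% lower over all genes. The sensors of double-stranded RNA and DNA counted 4 higher and 2 lower of 13, MHC class I presentation 3 and 3 of 20, and MHC class II presentation 3 and 1 of 6, with 1 higher without library 3 of hTERT RPE-1 of either treatment and the 1 lower member moving between 0 and 3 over 8 of the 12 libraries left out in turn. These counts are small, and those of the pathway genes and MHC class I lie near or below the shares over all genes. The summed haematopoietic markers went with miR-708 from 326 to 458 up to 4795 to 7237 in hTERT RPE-1 and from 456 to 722 up to 864 to 1067 in MCF10A. The member that rose was CD68, a lysosomal glycoprotein, while the pan-leukocyte marker PTPRC was near the value of 3 reads in hTERT RPE-1 and had no value analysed here in MCF10A.

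Of 22 inflammatory cytokines, chemokines and NF-κB targets, 7 were higher and 5 lower in hTERT RPE-1, beside 20.2% higher and 19.6% lower over all genes, and 3 were lower without its miR-708 library 1 or siNT library 2. IL1B rose in hTERT RPE-1 from 43.2, 36.5 and 60.2 to 641, 1231 and 412 and overlapped in MCF10A at 432, 327 and 294 and 379.9, 304 and 288. LIF, a cytokine of the IL6 family, was opposite, with a rise from 265, 123 and 132 to 496, 307.2 and 266 in MCF10A and a fall from 6389.7, 7390.2 and 5112 to 3214, 4557 and 3315 in hTERT RPE-1. The chemokine CXCL8 rose in hTERT RPE-1 (1.04) and was at -0.08 in MCF10A, but its difference was not called (adjusted p = 0.0814, and 0.0413 with each library scaled to the same total). Of 26 immediate early genes, 11 were higher and 5 lower, including FOSL1, a transcription factor downstream of ERK, at 0.03 in MCF10A and 1.69 in hTERT RPE-1.

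Genes that moved in the same direction in both lines, but by different amounts, were found at both ends. Among rises larger in hTERT RPE-1, CEACAM1, a cell adhesion molecule, went from 928, 404 and 314 to 1479, 1339.9 and 1221 in MCF10A and from 8.63, 3.04 and 4.4, of which libraries 2 and 3 were at or below 3 reads, to 1726, 4050.2 and 3076 in hTERT RPE-1. THBD, thrombomodulin, rose from 25.9, 21.3 and 14.7 to 897, 1204 and 1285 in hTERT RPE-1 and by 0.43 on the log2 scale in MCF10A, so that its difference was 5.30 ± 0.26 (adjusted p = 2.85e-09). KLF4, a transcription factor of epithelial differentiation, rose by 1.36 and 6.31, with siNT library 2 of hTERT RPE-1 at 3 reads or below. Rises larger in MCF10A were led by TRANK1 (difference -2.72 ± 0.44), the calcium-binding protein gene GCA (-2.59 ± 0.45), GPNMB, a glycoprotein of melanosomes and lysosomes (-2.50 ± 0.59), and the Src-family kinase FYN (-2.48 ± 0.28). FYN rose from 68.2, 50.4 and 73 to 405, 490 and 545 in MCF10A and from 1776, 1819 and 2156 to 2564, 2467 and 2608 in hTERT RPE-1, without overlap in either line.

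Falls larger in hTERT RPE-1 were led by ASAP3, KIAA1522, GXYLT2 and RTL8C. ASAP3, an activator of Arf GTPase hydrolysis, had log2 fold changes of -0.32 in MCF10A and -2.95 in the other line. KIAA1522 fell from 2049, 1764 and 1818 to 1233, 938 and 936 in MCF10A and from 5625, 5124 and 4587 to 466, 479 and 449 in hTERT RPE-1, a difference of -2.58 ± 0.17 (adjusted p = 2.86e-09). GXYLT2, a xylosyltransferase that modifies Notch, and RTL8C, derived from a retrotransposon, had differences of -2.53 ± 0.23 and -2.40 ± 0.23. Falls larger in MCF10A were smaller in difference. PXK, whose 8mer is shown above, fell from 1423, 1035 and 1522 to 459, 405 and 409 in MCF10A and from 1401, 1213 and 1644 to 868, 1049 and 739 in hTERT RPE-1, with a difference of 0.94 ± 0.21 (adjusted p = 0.00126). GPT2, an alanine aminotransferase of mitochondria, had a difference of 1.08 ± 0.27. MMP2, a gelatinase, and PEG10, an imprinted gene of retrotransposon origin, had differences of 0.99 ± 0.31 and 0.97 ± 0.37 (adjusted p = 0.0159 and 0.0434). The call of MMP2 was lost without the miR-708 library 8 or the siNT library 8 or 9 of MCF10A, and that of PEG10 in a joint fit of both lines, without the variance trend and in several fits that left out 1 library.

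The genes called in 1 line only are represented by the largest fold changes of that line. They were chosen among genes within 0.20 of 0 on the log2 scale in the other line, so the values near 0 there follow from the choice. LRRC37A3 and SMPD1, acid sphingomyelinase, rose in MCF10A (log2 fold changes of 1.98 and 1.60) and were at 0.00 and -0.10 in hTERT RPE-1. LRP4, a receptor of the LDL receptor family, and S100A2, a calcium-binding protein of basal epithelium, fell in MCF10A (log2 fold changes of -1.92 and -1.57) and were at -0.13 and -0.06 in hTERT RPE-1. S100A2 fell from 21251, 23486 and 22256 to 10037, 6894 and 6124 in MCF10A and overlapped in hTERT RPE-1 at 146, 147 and 166 and 158, 134 and 146. In the other direction, RAB27B, a GTPase of vesicle secretion, rose in hTERT RPE-1 from 148, 117 and 186 to 2050.3, 2997 and 2528 and overlapped in MCF10A at 6055, 4798 and 5205 and 5046, 5545 and 5170.2. EPPK1, a cytolinker of epithelial cells, fell in hTERT RPE-1 from 243, 305 and 123 to 14.9, 1.9 and 16.2, of which library 2 was below 3 reads. HACD2, a dehydratase of very long-chain fatty acid synthesis, fell from 13581, 17135 and 10222 to 1636, 1550.5 and 1556 in hTERT RPE-1 and was at 6138, 4925 and 5429 and 7367, 5903 and 5643 in MCF10A, a difference of -3.27 ± 0.20 (adjusted p = 7.91e-10).

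The remaining lists are given by their counts, beside the 39.8% of all genes that were called, 20.2% higher and 19.6% lower. The cholesterol synthesis genes had 6 members higher and 5 lower of 28, with medians of -0.376 (MCF10A) and -0.353 (hTERT RPE-1). With each library scaled to the same total these counts were 6 and 1. Without the miR-708 library 8 or 9 of MCF10A 2 were higher, without its siNT library 7 it was 3, and 2 were lower without its siNT library 8 and 3 without its miR-708 library 7, its siNT library 9 or the miR-708 library 3 or siNT library 2 of hTERT RPE-1. The counts were, for the lysosomal genes 5 and 7 of 30, the respiratory chain and ATP synthase 6 and 1 of 36, the proteasome subunits 9 and 3 of 31 (15 and 0 with each library scaled to the same total), and glycolysis and hypoxia 3 and 4 of 27. The Argonaute and microRNA processing genes had 2 higher and 1 lower of 13. Chaperones of the endoplasmic reticulum and XBP1 targets were lower in 6 of 20 and higher in none, the BCL2 family and caspases higher in 7 and lower in 5 of 21, the NRF2 antioxidant targets higher in 5 and lower in 5 of 21, the metallothioneins higher in 2 and lower in 1 of 6, and hyaluronan and prostanoid metabolism higher in 4 and lower in 5 of 15. Single libraries also decided some of these counts. Without the siNT library 7 of MCF10A or the miR-708 library 3 of hTERT RPE-1, 4 lysosomal genes were lower, and without the miR-708 library 9 of MCF10A, 3 respiratory chain genes were higher. At most 1 proteasome gene was lower without 8 of the 12 libraries in turn. Lower genes of hyaluronan and prostanoid metabolism numbered 3 without library 9 of MCF10A or library 1 of hTERT RPE-1, of either treatment, and 1 Argonaute gene was higher without the miR-708 library 2 or 3 or the siNT library 1 or 2 of hTERT RPE-1.

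**Figure D4:**
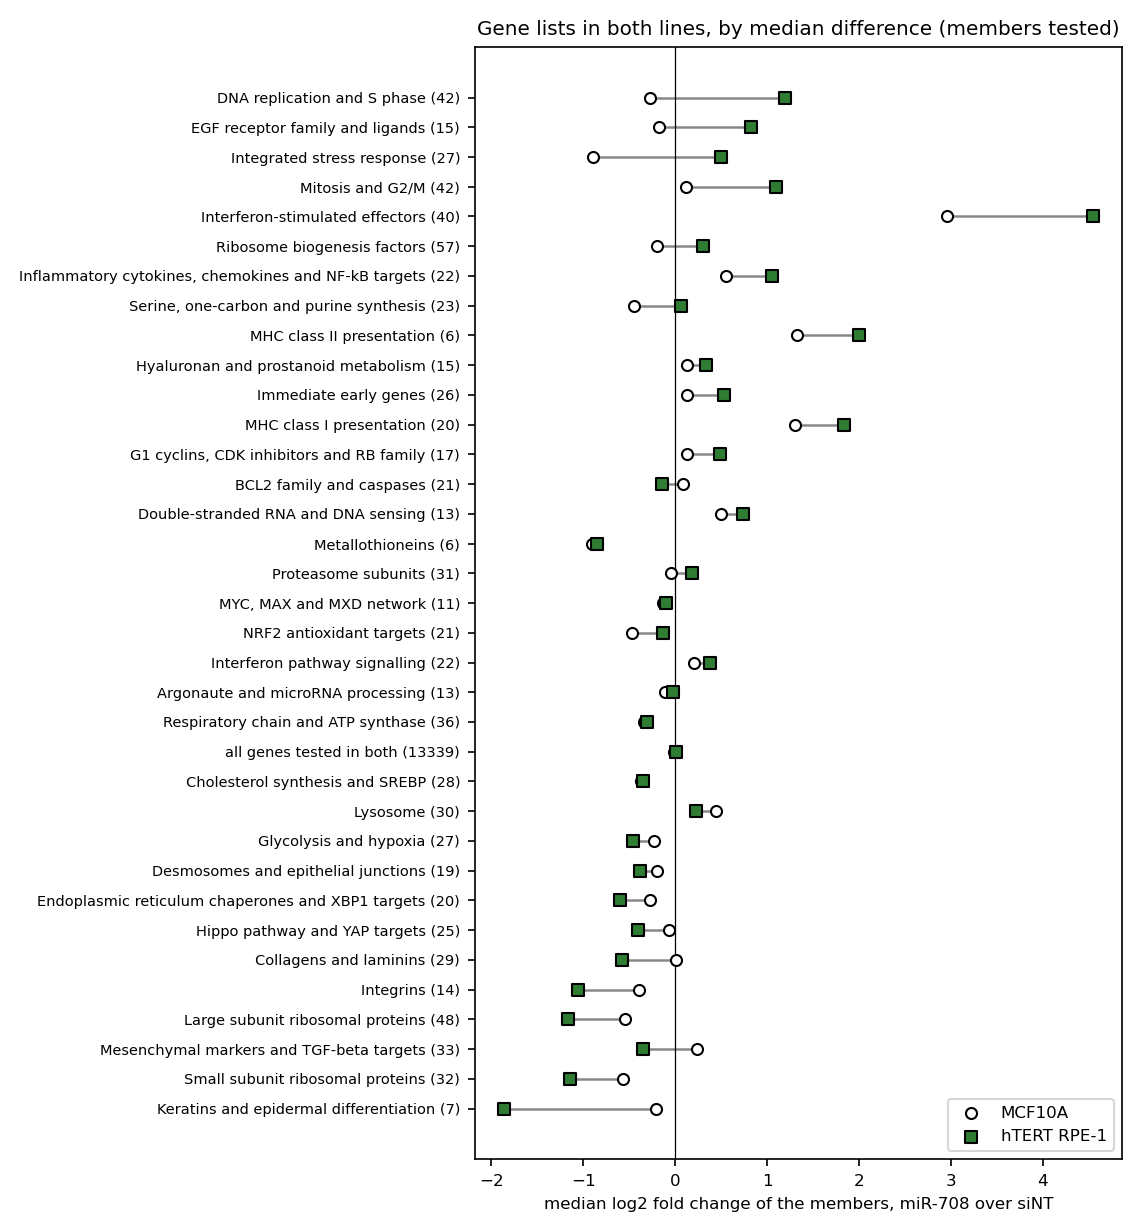
Each row is a gene list with the number of members tested, and the x axis gives the median log2 fold change of its members, miR-708 over siNT, in MCF10A (open circle) and hTERT RPE-1 (green square), in the order of the median difference. DNA replication, the EGF list, the integrated stress response and mitosis stand at the top with median differences of 1.45, 1.36, 1.25 and 1.15, and the 2 ribosomal protein lists, the mesenchymal list and the keratins at the bottom.

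The direction of the difference moved with the level of a gene with siNT. Among 410 genes whose siNT value lay over 8-fold below that of MCF10A in hTERT RPE-1, 52.7% were called higher and 5.61% lower in hTERT RPE-1, with a median log2 fold change of -0.09 in MCF10A, against 1.15 in hTERT RPE-1. Among 676 genes over 8-fold higher with siNT in hTERT RPE-1, 2.22% were called higher and 55% lower, with medians of 0.37 and -0.75. In the 7930 genes within 2-fold, 17.7% were higher and 13.6% lower. Of the 303 opposite genes that rose in hTERT RPE-1, 48 were in the lowest class and 147 in the class 2- to 8-fold lower, and of those that rose in MCF10A, 103 were in the class 2- to 8-fold higher and 85 in the highest. The genes named above fit this description in part, with KRT15 at one end and ACTA2, TAGLN and COL1A1 at the other. The siNT libraries enter both the ratio of levels and the fold changes, and the tables were scaled separately, so this is a description with no test.

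Annotated 3′ UTRs (GENCODE 44) were matched to 11898 of the 13339 genes (89.2%), and 2414 of them (20.3%) held a 7mer or 8mer of the seed. The 327 genes with an 8mer had a median log2 fold change of -0.207 (MCF10A) and -0.374 (hTERT RPE-1), the 1674 with a 7mer opposite bases 2 to 8 of -0.111 and -0.225, the 413 with the other 7mer of -0.136 and -0.122, the 2125 with a 6mer of -0.05 and -0.11, and the 7359 without a match of 0.00 and 0.102. The difference was called lower in hTERT RPE-1 for 27.6% and higher for 17% of genes with a 7mer or 8mer, against 16.8% and 24.5% of those without a match. UTR length moved with the match, with a median of 3300 bases for the 8mer class and 1070 without a match, and its part was not tested.

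By response, 45.4% of the genes with a fall larger in hTERT RPE-1 held a 7mer or 8mer, and 40% of the 45 with a fall larger in MCF10A. The share was 16.8% among the opposite genes that rose in hTERT RPE-1 and 20.3% among those that rose in MCF10A, beside 20.3% over all. The median UTR was 1430 bases for the falls larger in hTERT RPE-1 and 1560 over all. A match describes letters in the annotated UTR and is not a measured site.

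**Figure D5:**
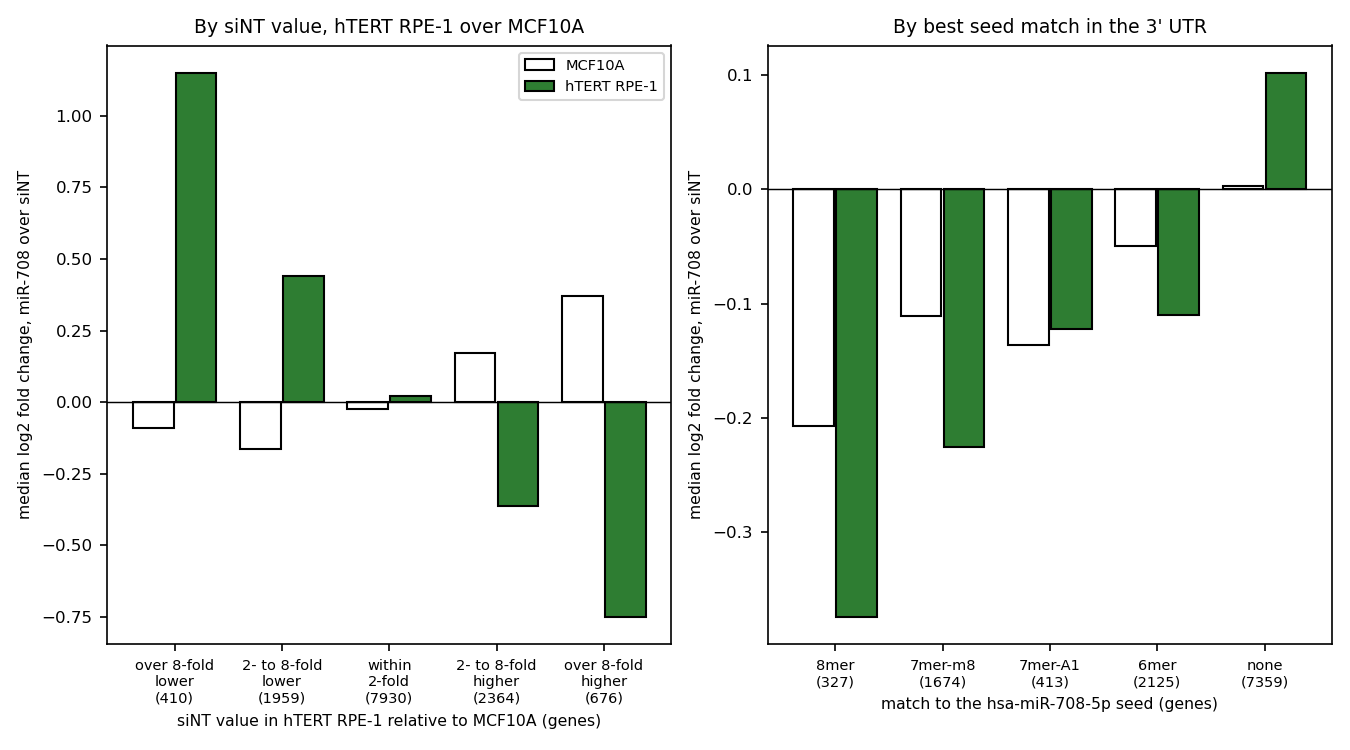
Bars give the median log2 fold change of miR-708 over siNT in MCF10A (white) and hTERT RPE-1 (green), on the left in 5 classes of the siNT value in hTERT RPE-1 relative to MCF10A and on the right by the best seed match in the longest annotated 3′ UTR, with the number of genes under each class. On the left the hTERT RPE-1 bar runs from 1.15 to -0.75 while the MCF10A bar runs from -0.09 to 0.37, and on the right both bars are lowest for the 8mer class.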

How the data were processed

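Polyadenylated RNA of 12 libraries (siNT and miR-708, 3 each in MCF10A and hTERT RPE-1) was compared. The authors aligned reads to hg38 with HISAT2 2.1.0, quantified RefSeq transcripts in Partek Flow and tested with DESeq2. The signal the authors deposited per gene and library is an estimated count divided by a size factor, in 1 table per line. They also deposited their own comparisons (a p-value with its FDR, a ratio and a log2 ratio), which were not used. Of the values below 20, 82.0% to 85.5% were within 0.05 of whole reads, so whole reads were not recovered and no count test was run. The depth was estimated from the value of 1 read.

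Values were transformed as log2(value + 1), so fold changes of low genes are understated. A gene entered the fit of a table if 3 or more of the 9 libraries reached 10, and limma 3.58.1 (R 4.3.3) was fitted per table to 3 group means with a variance trend. The difference was tested with the summed squared standard errors and Welch-Satterthwaite degrees of freedom, with Benjamini-Hochberg adjustment over 13339 genes. The procedure was run on simulated data with changes planted in the miR-708 libraries of hTERT RPE-1 alone. Each simulated library was drawn independently, so deviations shared between libraries were not covered. Tables were handled in pandas 2.3.3 and numpy 2.4.6 (Python 3.11.15) and drawn with matplotlib 3.10.9.

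Same-numbered siNT and miR-708 libraries deviated together in MCF10A (correlations of 0.302, 0.115 and 0.155) but not in every pair of hTERT RPE-1 (0.042, 0.152 and 0.0731), as a check of the numbers in the data. The numbers mark biological replicates, but the sources used here do not say whether same-numbered libraries of different treatments share a culture or day.

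Genes were named by a rule: mean of at least 100 in each table, difference called, then the 8 largest opposite differences each way, the 4 largest of each same-direction kind, the 2 largest of each kind in 1 line only, RPS28, MYC and CDKN1A, which the study followed, and up to 6 members of a list. Other list members are given as well-known members, by their values, and were chosen after these were seen. The members and lists were chosen with earlier results of these data known, and the lists come from general knowledge. 1 further list and 3 genes that the rule or lists gave are not reported here, though counts over the lists include those genes. Alternatives were 2 pseudocounts, 2 filters, 2 scalings, the replicate block, other fits and leaving out each library.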

Additional observations from a re-analysis of the deposited data

Results flagged for a closer look

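The responses of the 2 lines to miR-708 differed by a direct test of the difference of log2 fold changes, hTERT RPE-1 minus MCF10A, for 5311 of 13339 genes, and 549 of them were opposite. All genes that follow were singled out by this test.

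Among the opposite responses, the differences were 4.40 for KCNQ5, 4.34 for KRT15, 4.20 for SLC7A11, 3.96 for ITGA2, 3.73 for DUSP6, 3.58 for PHGDH and 3.19 for PPARGC1B, and, the other way, -6.21 for VSTM2L, -6.21 for SDC2, -5.33 for RGS5, -5.24 for ACTA2, -4.81 for CLIP3, -4.74 for COL1A1, -4.28 for TAGLN and -3.98 for PRSS23.

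Among responses of the same direction, the differences were 7.72 for OAS1, 7.42 for CEACAM1, 5.30 for THBD and 4.95 for KLF4, which rose more in hTERT RPE-1, and -2.72 for TRANK1, -2.59 for GCA, -2.50 for GPNMB and -2.48 for FYN, which rose more in MCF10A. Genes that fell more in hTERT RPE-1 had differences of -2.63 (ASAP3), -2.58 (KIAA1522), -2.53 (GXYLT2), -2.40 (RTL8C) and -1.74 (RPS28), and genes that fell more in MCF10A of 1.08 (GPT2), 0.99 (MMP2), 0.97 (PEG10) and 0.94 (PXK).

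Among genes called in 1 line, the differences were -1.98 for LRRC37A3, -1.70 for SMPD1, 1.78 for LRP4, 1.51 for S100A2 and 0.85 for MYC, called in MCF10A, and 5.47 for LAMA3, 4.09 for RAB27B, -4.69 for EPPK1, -3.27 for HACD2 and -0.85 for CDKN1A, called in hTERT RPE-1.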

How the results depend on the processing

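The count of 5311 differing and 549 opposite genes stayed within 1.5 times under pseudocounts of 0.1 and 5, no filter, a mean of at least 50, both scalings, the 6 siNT and miR-708 libraries alone, a joint fit and no variance trend (5066 to 5523 and 429 to 631, and 4826 and 503 with the mean of at least 50). Requiring a difference of at least 1 left 2270 and 400. Leaving out 1 library gave 4624 to 5441 differing and 280 to 704 opposite genes, and a slope of 0.589 to 0.740, against 0.824 with a mean of at least 50. With a replicate block in each table, 5838 differed and 753 were opposite. With the block in MCF10A only, 5648 differed and 732 were opposite. That choice was made after seeing how same-numbered libraries deviated, and the sources do not say that the numbers pair the libraries. None of the 43 genes named by size of difference or followed by the study lost its call under either block or reversed under any alternative. Among them, calls were lost by MMP2, PEG10, PXK, MYC and CDKN1A where a difference of at least 1 was required, by PEG10 also in the joint fit and without the trend, and by MMP2 and PEG10 without single libraries. Of the 51 further list members with values in the text, 45 were called. RPL23A, TCOF1, UTP14A, ATF3, EGFR and FBL lost the call where a difference of at least 1 was required, EGFR without the trend, and ATF3 and EGFR without single libraries (differences of 0.717 to 1.22 and 0.405 to 0.634). CXCL8, not called, was called with each library scaled to the same total, the block in each table, the 6 libraries alone and without some single libraries (0.825 to 1.41). Uncalled differences changed sign for ISG15 (-0.0794 with a pseudocount of 0.1, -0.35 to 0.28 without single libraries) and CCN2 (-0.66 to 0.11). Scaling each library to the same total moved the split of called differences from 50.84% to 68.45% higher in hTERT RPE-1. With the shortest annotated UTR, the median difference was -0.206 for the 8mer class and 0.03 without a match. Depth limits genes near the value of 3 reads, such as OAS1, CEACAM1 and KLF4 with siNT in hTERT RPE-1 and SDC2 in MCF10A.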

Other observations

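Some members of the lists passed the filter in a single line, so no difference could be formed for them, and the genes named here were chosen after their values were seen. In MCF10A, the stratified epithelial keratins KRT4, KRT13 and KRT14 fell from siNT means of 2808, 1048 and 35970 to 187.5, 124 and 7456 with miR-708 (log2 fold changes of -3.89, -3.40 and -2.29, adjusted p = 1.36e-05, 0.00116 and 1.26e-05). LCN2, a siderophore-binding protein of innate immunity, rose from 758 to 3468 (2.32, adjusted p = 0.000259). In hTERT RPE-1, the basement membrane protein NID2 fell from 5876 to 1202 (-2.30, adjusted p = 4.47e-07), the collagen COL3A1 from 303 to 29.9 (-2.97, adjusted p = 0.00357), and CDKN2B, an inhibitor of cyclin-dependent kinases induced by TGF-β, from 6242 to 1028 (-2.62, adjusted p = 6.68e-06). These responses have no counterpart analysed in the other line, and whether they differ between the lines was not tested.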
